A study of Homo sapiens with 8 samples.

Results

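miR-221 and miR-222 were described across 4 human tumor-derived cell lines by small RNA sequencing. The members were the entries of the miRNA table named hsa-miR-221-3p, hsa-miR-221-5p, hsa-miR-222-3p and hsa-miR-222-5p, that is, both arms of both hairpins. They are 4 of 2588 mature miRNA names in the table, each with a single entry, and all 4 were among the 528 names that passed the filter on low read counts. The lines were ES-2, from an ovarian cancer, MV-3, from a melanoma, Huh-7, from a hepatocellular carcinoma, and A-549, from a lung adenocarcinoma. All 8 libraries, 2 per line, were made from parental cells that had received no treatment, had been grown in DMEM with serum and were harvested 48 h after seeding. Each tumor type is thus represented by 1 established line, so a difference between lines cannot be told apart from a difference between tumor types.

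The hairpins of miR-221 and miR-222 are encoded as neighbors on the X chromosome, and each is cut into a 5p and a 3p arm. The 3p arms are the strands that are usually loaded into Argonaute proteins, whereas the 5p arms are usually degraded. Known targets of the 3p arms include the mRNAs of the cell cycle inhibitor CDKN1B (p27) and of the receptor tyrosine kinase KIT, and both miRNAs are well known for high levels in many solid tumors, liver cancer and melanoma among them.

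In GRCh38, MIR221 (ENSG00000207870.1) lies at chrX:45746157-45746266 and MIR222 (ENSG00000207725.3) at chrX:45747015-45747124, both on the minus strand. Their starts are 858 bases apart, with 748 bases between the hairpins. Both lie within the long non-coding RNA gene MIR222HG, which spans chrX:45745210-45770274. Of its 4 annotated transcripts, 1 spans the hairpins. MIR222 overlaps none of its exons and is intronic, whereas 24 of the 110 bases of MIR221 overlap an exon. The mature sequences below are shown because the 3p arms share a seed, the stretch that pairs with target mRNAs. They were taken from RefSeq for GRCh38.p14 and were matched by name for 3 of the 4 members. Capitals mark the seed, bases 2 to 8.

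hsa-miR-221-3p: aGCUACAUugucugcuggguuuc

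hsa-miR-222-3p: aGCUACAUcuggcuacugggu

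hsa-miR-222-5p: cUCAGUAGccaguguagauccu

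The 3p arms were identical over their first 8 bases and in 18 of 24 aligned positions. None of the other miRNAs among 2281 table names with a RefSeq sequence had the seed GCUACAU, and none had the seed UCAGUAG of hsa-miR-222-5p (0 others for each). hsa-miR-221-3p maps to chrX:45746180-45746202, hsa-miR-222-3p to chrX:45747036-45747056 and hsa-miR-222-5p to chrX:45747073-45747094, on the minus strand.

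Sequencing depth was 1173902 to 2670030 miRNA reads per library. Levels are given as normalized CPM, the deposited values, in which counts scaled to library size (CPM) were divided by a composition factor of the library (TMM). These factors ranged from 0.593 to 1.704, so levels between lines are also given as library CPM, which leave the factor out. A count of 3 reads, taken as the detection floor, corresponded to 0.845 to 2.45 normalized CPM. Intervals and floors cover counting error only, since PCR copies were not told apart. Replicate libraries of a line differed by more than counting error, with a chi-square of 8.53 to 15.6 per degree of freedom. Markers of hepatocytes and melanocytes were set beside the stated origin of the lines. No marker of ovarian or lung cells was looked up, so the origin of ES-2 and A-549 was not checked. Summed hepatocyte markers (miR-122-5p, miR-885-5p, miR-192-5p and miR-194-5p) were at 94976 to 98543 normalized CPM in Huh-7 and at 153 to 192 in ES-2 and MV-3, while A-549 held 7561 to 7826. In A-549 this sum came from miR-192-5p and miR-194-5p, since miR-122-5p was at 7.39 and 3.27 and miR-885-5p at 0. The 5 melanocyte markers were nearly absent from the melanoma line MV-3, where 4 of 5, miR-211-5p among them, were at 0 and the sum was 1.10 to 1.48. The melanocyte list was highest in Huh-7, where it summed to 34.2 to 44.2, mainly through miR-204-5p.

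In each of the 8 libraries the 3p arms were abundant and the 5p arms were minor products. All members together took 8.27% ± 0.171 of the reads of ES-2 libraries (SD, n = 2), 6.48% ± 0.168 of those of MV-3, 1.31% ± 0.0203 of those of A-549 and 0.573% ± 0.00965 of those of Huh-7. Nearly all of this came from the pair that shares a seed, which took 8.11% ± 0.186 of reads in ES-2 and 0.562% ± 0.0114 in Huh-7. Both 5p arms together took 0.166% ± 0.0155 of reads in ES-2 and 0.0110% ± 0.00170 in Huh-7. These sums describe the libraries and were not tested.

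By reads, hsa-miR-222-3p was the most abundant member in every library. Levels and ratios of different members are of reads here and were not calibrated to numbers of molecules. Its level was 63999.5 and 67794 normalized CPM in the ES-2 replicates, 38795.5 and 38673 in those of MV-3, 14138 and 14937 in those of A-549, and 2527 and 2360.3 in those of Huh-7. The libraries of the 4 lines did not overlap, and ES-2 was highest and Huh-7 lowest. It was the miRNA with rank 4 in all ES-2 and MV-3 libraries, but had ranks 13 and 11 in A-549 and ranks 34 and 36 in Huh-7. As a share of reads it reached 5.54% in ES-2 replicate 1 (95% Wilson interval 5.51 to 5.58) and 0.413% in Huh-7 replicate 1 (0.404 to 0.421).

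hsa-miR-221-3p, the other guide strand with this seed, followed the same order at a lower level. It was measured at 28091 and 29319 normalized CPM in the libraries of ES-2, 17780.3 and 14497 in those of MV-3, 6813 and 6915 in those of A-549, and 963 and 891 in those of Huh-7. Again no library of a line overlapped those of another. Replicates lay closest in A-549, where they differed 1.01-fold, and farthest apart in MV-3, where they differed 1.23-fold. Its rank in the library was 8 to 9 for ES-2, 9 to 11 for MV-3, 25 in both A-549 libraries and 59 in both Huh-7 libraries.

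The minor arm hsa-miR-221-5p was present at 1908 and 1707 normalized CPM in the ES-2 libraries, 724 and 872 in those of MV-3, 297 and 424 in those of A-549, and 58.0 and 65.9 in those of Huh-7. Its lines did not overlap either, although the A-549 replicates differed 1.43-fold. Between 193 and 3324 reads stood behind these values.

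hsa-miR-222-5p was the rarest member and the least precisely measured. The ES-2 libraries gave 129 and 115 normalized CPM, the MV-3 libraries 59.2 and 55.4, the A-549 libraries 14.2 and 12.3, and the Huh-7 libraries 1.69 and 5.46. The order of the lines was that of the other members and the lines did not overlap. However, the Huh-7 values rest on 6 reads (95% Poisson interval 2.20 to 13.1) and 16 reads (9.15 to 26.0), and the A-549 values on 23 and 15 reads. On the scale of library CPM, hsa-miR-222-5p was at 8.61 and 7.28 in A-549 and at 2.76 and 9.31 in Huh-7, so that these lines overlapped. For the other 3 members the order of the lines, and the absence of overlap between them, was the same on both scales.

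**Figure D1:**
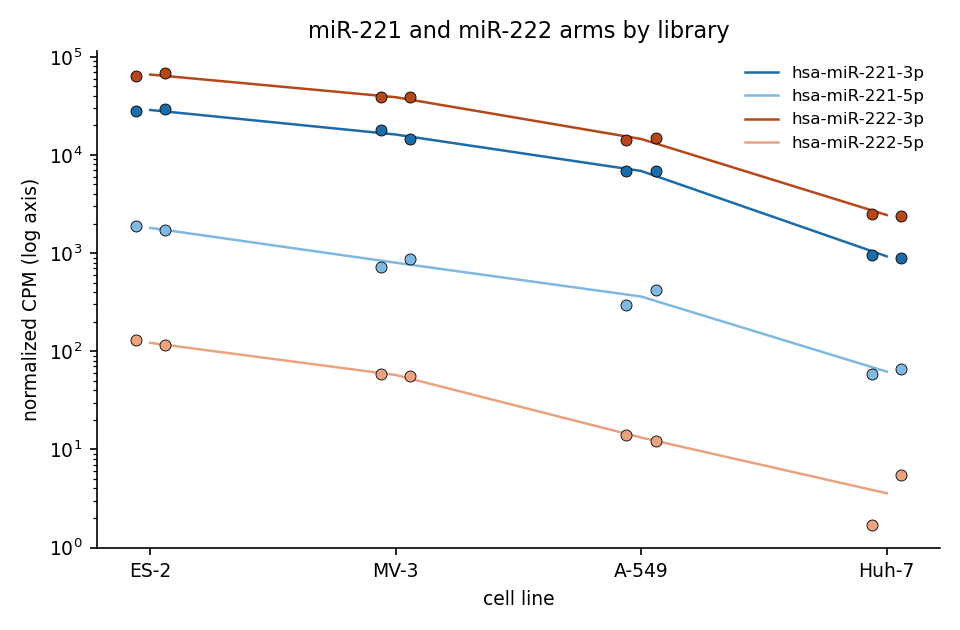
Level of each member of miR-221 and miR-222 in normalized CPM (log axis) in the 4 cell lines; points are single libraries, 2 per line, and lines join the means of the cell lines. All 4 members fall from ES-2 over MV-3 and A-549 to Huh-7, and the Huh-7 points of hsa-miR-222-5p, at 1.69 and 5.46, are the farthest apart.

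The order ES-2, MV-3, A-549, Huh-7 was read from the members, so that all 4 have it is no test. Without overlap of libraries it was found for 18 of 528 miRNAs tested (3.41%), the members included. The share of miRNAs with any other order without overlap was not counted. The other 14 were let-7a-5p, let-7d-5p, miR-29a-3p, miR-29a-5p, miR-29b-3p, miR-29b-1-5p, miR-100-5p, miR-100-3p, miR-101-3p, miR-125b-5p, miR-155-5p, miR-484, miR-584-5p and miR-625-3p. Comparison of the 4 lines with limma, on log2(normalized CPM + 1) and adjusted over all 528 miRNAs, called 4 of 4 members at an adjusted p below 0.01. In this comparison 68.2% of all tested miRNAs were called, so a call alone does not set the members apart. The adjusted p from limma was 3.24e-07 for hsa-miR-221-3p, 6.54e-06 for hsa-miR-221-5p, 5.92e-08 for hsa-miR-222-3p and 0.000268 for hsa-miR-222-5p. By the F statistic, hsa-miR-222-3p had rank 5 of 528 and hsa-miR-221-3p rank 22.

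Pairs of lines were then compared, all 6 in the same limma model. Pairs that have a line in common share its libraries, so the values below are not independent of each other. The pairs differed most between ES-2, the line with the highest levels, and Huh-7. All 4 members were lower in Huh-7, where 21.6% of all miRNAs were called lower than in ES-2. A log2 fold change of -4.95 ± 0.10 (SE) was found for hsa-miR-221-3p (adjusted p = 1.08e-07, limma), -4.85 ± 0.19 for hsa-miR-221-5p (adjusted p = 2.06e-06), -4.75 ± 0.059 for hsa-miR-222-3p (adjusted p = 1.52e-08) and -4.88 ± 0.44 for hsa-miR-222-5p (adjusted p = 0.00011). The members ranked 38 to 45 of 528 by fold change, counted from the largest decrease. Their median log2 fold change was -4.86, beside 0.34 over all miRNAs. In means of normalized CPM, ES-2 exceeded Huh-7 31.0-fold for hsa-miR-221-3p, 29.2-fold for hsa-miR-221-5p, 27.0-fold for hsa-miR-222-3p and 34.1-fold for hsa-miR-222-5p. In library CPM the same folds were 15.9, 15.0, 13.9 and 17.3, so their size depended on the scaling while their direction did not.

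MV-3 resembled ES-2 more closely. Compared with ES-2, the level in MV-3 was called lower by limma for 3 of 4 members, against 14.2% of all miRNAs called lower. log2 fold changes were -0.84 ± 0.10 (SE) for hsa-miR-221-3p (limma adjusted p = 0.000867), -1.18 ± 0.19 for hsa-miR-221-5p (adjusted p = 0.00339) and -0.77 ± 0.059 for hsa-miR-222-3p (adjusted p = 0.000129). For hsa-miR-222-5p it was -1.07 ± 0.44 and was not called (limma adjusted p = 0.114), though 1 of 19 alternatives called it. Of the 3 calls, that of hsa-miR-222-3p was kept in each of the alternatives tried. Only 1 member was called without ES-2 replicate 1, without ES-2 replicate 2 or when libraries were scaled by size only, where the fold changes were -0.40 (limma adjusted p = 0.0117) for hsa-miR-221-3p and -0.74 (adjusted p = 0.0242) for hsa-miR-221-5p. The call of hsa-miR-221-5p was also lost without MV-3 replicate 1, MV-3 replicate 2, Huh-7 replicate 1 or Huh-7 replicate 2, and over the 7 of 19 alternatives that ended it the limma adjusted p reached 0.0411.

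Levels in MV-3 exceeded those in Huh-7 for every member. The log2 fold change of Huh-7 against MV-3 was -4.11 ± 0.10 (SE) for hsa-miR-221-3p, -3.66 ± 0.19 for hsa-miR-221-5p, -3.99 ± 0.059 for hsa-miR-222-3p and -3.81 ± 0.44 for hsa-miR-222-5p. All 4 members were called lower, with limma adjusted p values between 5.42e-08 and 0.000385, and 20.1% of all miRNAs were called lower. In means of normalized CPM these differences were 12.9-fold to 17.4-fold, and in library CPM 8.98-fold to 12.1-fold for the same members.

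A-549 held an intermediate level of every member. Against ES-2, it was lower by -2.06 ± 0.10 (log2 fold change, SE) for hsa-miR-221-3p, -2.34 ± 0.19 for hsa-miR-221-5p, -2.18 ± 0.059 for hsa-miR-222-3p and -3.11 ± 0.44 for hsa-miR-222-5p. The 4 members were called lower, with limma adjusted p values of 1.29e-06 to 0.00124, and so were 17.6% of all miRNAs. The call of hsa-miR-222-5p was lost without ES-2 replicate 1, ES-2 replicate 2, A-549 replicate 1 or A-549 replicate 2, with limma adjusted p values of 0.0101 to 0.0152.

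Against MV-3, A-549 was lower in all 4 members, and 15.5% of all miRNAs were called lower. The log2 fold changes were -1.23 ± 0.10 (SE) for hsa-miR-221-3p (limma adjusted p = 0.000113), -1.16 ± 0.19 for hsa-miR-221-5p (adjusted p = 0.00262), -1.41 ± 0.059 for hsa-miR-222-3p (adjusted p = 7.91e-06) and -2.04 ± 0.44 for hsa-miR-222-5p (adjusted p = 0.0087). The 3p arms kept their calls in each of the alternatives tried. Between MV-3 and A-549, the fold in means rose from 2.35 in normalized CPM to 4.55 in library CPM for hsa-miR-221-3p and from 2.66 to 5.16 for hsa-miR-222-3p. Without ES-2 replicate 1, MV-3 replicate 1, MV-3 replicate 2 or A-549 replicate 1, 2 members were called in place of 4, namely the 3p arms. Without Huh-7 replicate 1 or Huh-7 replicate 2, hsa-miR-221-5p also lost its call, in 6 of 19 alternatives in all (limma adjusted p up to 0.0233). hsa-miR-222-5p lost its call in 10 of 19 alternatives, with limma adjusted p values of 0.0128 under RLE scaling, 0.014 without a filter, 0.0244 with a pseudocount of 0.1 and 0.0143 with a replicate block, and of up to 0.0553 without any single ES-2, MV-3 or A-549 library.

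Against Huh-7, A-549 had the higher mean for all 4 members and was called higher for 3 of them, while 28.6% of all miRNAs were called higher. The log2 fold change was 2.89 ± 0.10 (SE) for hsa-miR-221-3p, 2.50 ± 0.19 for hsa-miR-221-5p and 2.57 ± 0.059 for hsa-miR-222-3p, with limma adjusted p values of 2.71e-07 to 5.15e-05. hsa-miR-222-5p, with 6 and 16 reads in the Huh-7 libraries, gave 1.77 ± 0.44 and was not called (limma adjusted p = 0.0123). It was called without Huh-7 replicate 2 (2.40, limma adjusted p = 0.0018) by edgeR on recovered reads (1.92, adjusted p = 0.00873), by DESeq2 (2.13, adjusted p = 0.00141) and under RLE scaling (1.95, limma adjusted p = 0.00976). Scaling by library size only gave 0.52 (limma adjusted p = 0.368), and the fold in means fell from 3.69 in normalized CPM to 1.32 in library CPM. Scaling mattered most in this pair. In means, A-549 exceeded Huh-7 7.40-fold for hsa-miR-221-3p and 5.95-fold for hsa-miR-222-3p in normalized CPM, but 2.67-fold and 2.14-fold in library CPM.

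**Figure D2:**
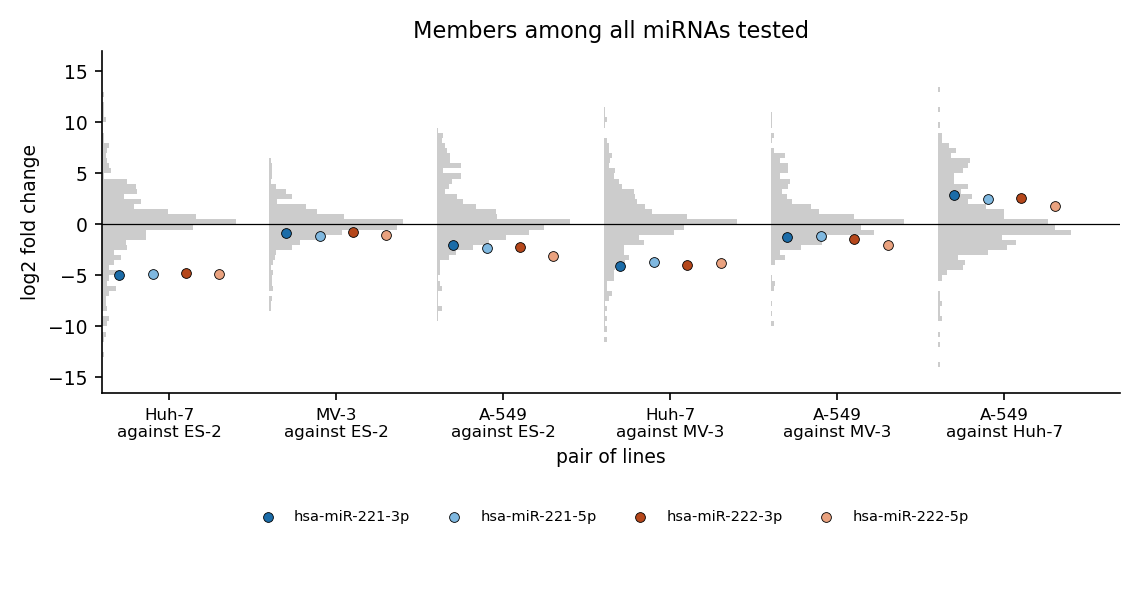
Log2 fold change (limma, log2 of normalized CPM + 1) in the 6 pairs of lines; gray bars show the distribution over all 528 miRNAs tested, drawn to the same width in each pair, and colored points show the 4 members. Against ES-2 the Huh-7 points lie together between -4.95 and -4.75, and in each pair the members lie on the same side of 0.

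Markers of other cell types were measured beside the members. Of the 5 blood cell markers, miR-142-3p and miR-142-5p were detected in ES-2, where the list summed to 503 to 554 normalized CPM, while miR-223-3p and miR-144-3p were at 0 and miR-451a was at 0.694 and 0. The list summed to at most 3.27 in the other lines and to 0 in MV-3. The 5 epithelial markers of the miR-200 family were summed as well, with sums of 2273 to 2339 for Huh-7, 1605 to 1726 for A-549, 56.0 to 60.4 for ES-2 and 29.6 to 46.1 for MV-3. miR-200b-3p made up most of the sums of Huh-7 and A-549, whereas miR-141-3p was highest in ES-2, at 4.86 and 5.65. Among the epithelial markers, miR-200a-3p was at 0 in ES-2 and miR-141-3p at 0 in MV-3. Whether these markers are related to the differences of miR-221 and miR-222 was not tested.

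While levels of the 3p arms ranged over 27.0-fold to 31.0-fold between lines, their ratio moved little. hsa-miR-222-3p was sequenced 2.28 and 2.31 times as often as hsa-miR-221-3p in the ES-2 libraries, 2.18 and 2.67 times in those of MV-3, 2.08 and 2.16 times in those of A-549, and 2.62 and 2.65 times in those of Huh-7. Huh-7 thus lay above ES-2 and A-549, with A-549 lowest, but the MV-3 replicates covered nearly the whole range. From the lowest to the highest of 8 libraries, the ratio changed 1.29-fold. Counting error was smaller than the replicate difference in MV-3, where the 95% intervals of the ratio were 2.15 to 2.22 and 2.63 to 2.71. A difference among the 4 lines was not called (limma adjusted p = 0.551), and an exact permutation test over all partitions of the libraries into pairs gave p = 0.21. No neighbor ratio of the members was called, while 12.7% of the 71 neighboring hairpin pairs were. Between A-549 and Huh-7, the pair of lines farthest apart, the log2 ratio of hsa-miR-221-3p to hsa-miR-222-3p differed by 0.32 (95% interval -0.11 to 0.74), so a change of up to 1.24-fold was observed and larger ones lay within the interval.

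This ratio was compared with those of other neighboring hairpins with starts at most 10000 bases apart. Each hairpin was represented by its more abundant arm among names with a single entry. Some hairpins, those of let-7f among them, were therefore represented by a minor arm. The line means of the log2 ratio spanned 0.32 for miR-221 and miR-222, against a median of 1.32 over 71 pairs. The largest spans, 6.03 for let-7f-1-3p with let-7d-5p and 5.61 for miR-98-5p with let-7f-2-3p, involved such minor arms. A span below 0.32 was measured for 2 pairs, miR-23b-3p with miR-27b-3p (0.17) and miR-93-5p with miR-106b-5p (0.29). Among the 11 pairs with a geometric mean level of at least 1000 normalized CPM, the same 2 pairs had a smaller span. The rest of the 11 spanned 0.43 to 0.61, apart from let-7e-5p with miR-125a-5p (1.72) and with miR-99b-5p (2.11). Most pairs at such levels thus lay closer to miR-221 and miR-222 than the median of all pairs did. These ranks and spans are a description of the 8 libraries and were not tested.

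The arm ratio of miR-221 was also similar between lines. For each read of hsa-miR-221-5p, 14.7 and 17.2 reads of hsa-miR-221-3p were counted in the ES-2 libraries, 24.6 and 16.6 in those of MV-3, 22.9 and 16.3 in those of A-549, and 16.6 and 13.5 in those of Huh-7. In MV-3 and A-549 the replicates differed more than the line means did, and all 4 lines overlapped at least 1 other line. The difference among lines was not called by limma (adjusted p = 0.571), and the exact permutation p was 0.4. Line means spanned 0.45 on the log2 scale, from Huh-7, the lowest, to MV-3. The largest pairwise difference, Huh-7 against MV-3, was -0.45 with a 95% interval of -1.23 to 0.33.

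miR-222 was far more one-sided. It gave 496 and 592 reads of hsa-miR-222-3p per read of hsa-miR-222-5p in the libraries of ES-2, 655 and 698 in those of MV-3, 999 and 1218 in those of A-549, and 1496 and 432 in those of Huh-7. The ES-2 and MV-3 replicates lay close together and below those of A-549, whereas the Huh-7 replicates enclosed the values of all other lines. Their 95% counting intervals were 687 to 4076 and 266 to 756. Among the 4 lines the ratio was not called (limma adjusted p = 0.378, exact permutation p = 0.4), and 7.91% of 139 hairpins had a called arm ratio. The difference between A-549 and ES-2, 0.93 on the log2 scale, had a 95% interval of -0.17 to 2.03. On the log2(normalized CPM + 1) scale the added 1 lowers the ratio in Huh-7, where hsa-miR-222-5p was close to it. With a pseudocount of 0.1 the difference of Huh-7 against MV-3 changed from -0.18 to 0.20, and neither value was called.

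**Figure D3:**
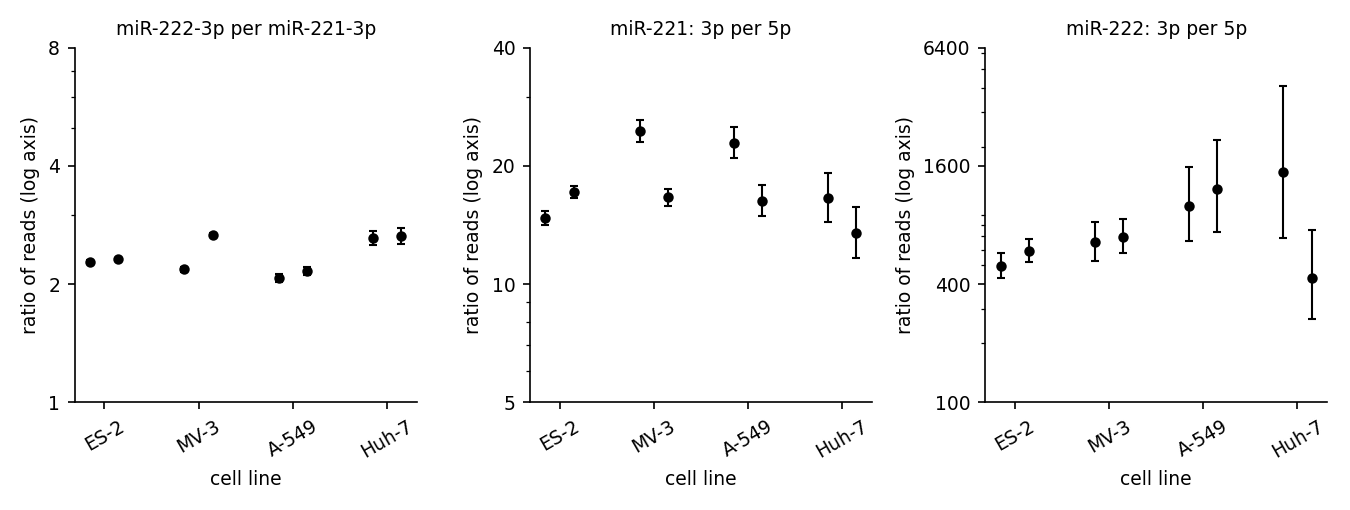
Ratios of reads within a library (log axes) in the 4 lines: hsa-miR-222-3p per hsa-miR-221-3p, and 3p per 5p for miR-221 and for miR-222. Points are single libraries and bars are 95% intervals for counting error only; the first ratio stays between 2.08 and 2.67, and the bars of miR-222 in Huh-7 are the widest because 6 and 16 reads of the 5p arm were counted.

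Among 139 hairpins with both arms past the filter, 64 had more 3p than 5p on average. The mean log2 ratio of 3p to 5p was 9.41 for miR-222, and the arms of 3 hairpins, miR-30d, miR-100 and miR-182, were more unequal, all in favor of 5p. For miR-221 the mean was 4.12, and 49 hairpins were more unequal. The span of line means was 0.93 for miR-222 and 0.45 for miR-221, beside a median of 1.41, and it was smaller in 42 and 11 hairpins, respectively. The minor arms gave a further ratio. Per read of hsa-miR-222-5p, 14.8 and 14.9 reads of hsa-miR-221-5p were found in the ES-2 libraries, 12.2 and 15.7 in those of MV-3, 21.0 and 34.6 in those of A-549, and 34.3 and 12.1 in those of Huh-7. Among the minor arms miR-221 therefore exceeded miR-222 in every library, the reverse of the order of the 3p arms.

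**Figure D4:**
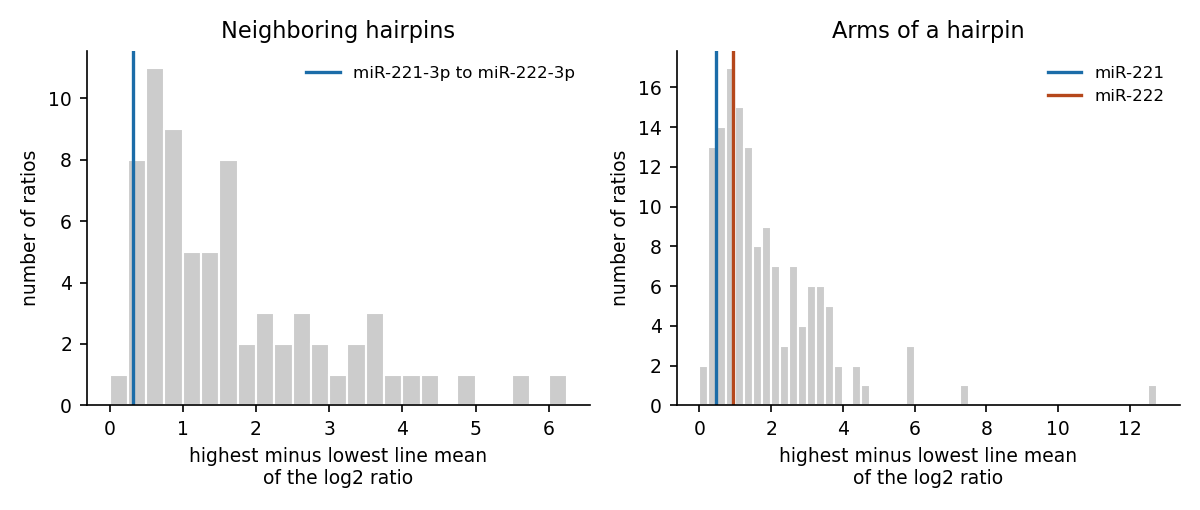
Distribution of the span between the highest and the lowest line mean of the log2 ratio, for 71 pairs of neighboring hairpins (left) and for the 3p to 5p ratio of 139 hairpins (right); colored lines mark miR-221 and miR-222. The ratio of hsa-miR-221-3p to hsa-miR-222-3p lies near the left edge at 0.32, and the arm ratios lie at 0.45 and 0.93.

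The miRNAs with the profile most like each member were looked up over the 8 libraries, among 376 miRNAs whose mean reached 10 normalized CPM. Pearson's r of log2(normalized CPM + 1) is given as a description. The points share the 4 lines and 1 scaling, and 22 to 27 candidates per member had an r above 0.9. For hsa-miR-221-3p the closest were miR-100-5p (r = 0.996), miR-29a-3p (0.995), miR-29a-5p (0.991), miR-484 (0.990) and miR-125b-1-3p (0.984). hsa-miR-222-3p was closest to miR-29a-3p (0.994), miR-100-5p (0.992), miR-29a-5p (0.991), miR-484 (0.989) and miR-155-5p (0.984). For hsa-miR-221-5p these were miR-29a-3p (0.992), miR-29b-1-5p (0.987), miR-29b-3p (0.984), miR-100-5p (0.980) and miR-29a-5p (0.978). hsa-miR-222-5p was followed by miR-29b-3p (0.985), miR-155-5p (0.985), miR-125b-5p (0.978), miR-29b-1-5p (0.973) and miR-100-3p (0.966). The members among themselves had r from 0.955 to 0.998, with 0.998 for the 3p arms. When libraries were scaled by size only, miR-29a-3p had rank 2 for both 3p arms and for hsa-miR-221-5p. miR-484 dropped to rank 29 for hsa-miR-221-3p and rank 23 for hsa-miR-222-3p. miR-100-5p dropped from rank 1 to 6 for hsa-miR-221-3p, from 2 to 10 for hsa-miR-222-3p and from 4 to 11 for hsa-miR-221-5p. miR-155-5p rose from rank 5 to 1 for hsa-miR-222-3p and fell from 2 to 6 for hsa-miR-222-5p.

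miR-29a-3p, a regulator of collagen mRNAs, was also close to hsa-miR-221-3p in level, with means of 29196 normalized CPM in ES-2 cells, 12875 in MV-3 cells, 6722 in A-549 cells and 1092 in Huh-7 cells. miR-100-5p, a regulator of the kinase mTOR, had the same order but a steeper profile, with 129655 in ES-2 cells, 60156 in MV-3 cells, 14757 in A-549 cells and 223 in Huh-7 cells. miR-155-5p fell further still, from 9249 in ES-2 to 38.3 in A-549 and to 0.171, below the detection floor, in Huh-7.

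Other miRNAs known to repress the shared targets were examined next. Of 5 miRNAs known as regulators of KIT or CDKN1B, 4 were tested, and 0 had the order of the members. That order was found for 3.41% of all miRNAs, so its absence does not set this list apart. miR-193a-3p did not pass the filter. By limma, Huh-7 against ES-2 had 3 higher and 1 lower (27.7% and 21.6% of all miRNAs were called higher and lower). MV-3 against ES-2 had 3 higher and 0 lower (11.6% and 14.2% of all miRNAs), and A-549 against ES-2 had 4 higher and 0 lower (23.7% and 17.6%). Counts of 2 higher and 1 lower were found in Huh-7 against MV-3 (26.9% and 20.1%), in A-549 against MV-3 (24.1% and 15.5%) and in A-549 against Huh-7 (28.6% and 23.7%). The median log2 fold change of the list was 3.01 in Huh-7 against ES-2 and 2.86 in A-549 against ES-2, where the members had medians of -4.86 and -2.26 and all miRNAs 0.34 and 0.0031. miR-24-3p was highest in MV-3, at 17914 ± 855 normalized CPM (SD, n = 2), and lowest in Huh-7, at 2743 ± 118. miR-196a-5p rose from 276 ± 48.2 in ES-2 to 5168 ± 230 in Huh-7, with a log2 fold change of 4.23 (limma adjusted p = 1.1e-06). miR-34a-5p was at 2.34 ± 2.58 in ES-2 and at 0 in both MV-3 libraries, while A-549 held 444 ± 12.1 and Huh-7 163 ± 15.5.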

How the data were processed

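Total RNA was extracted with TRIZOL, and small RNA libraries were made by the authors with a NEXTflex kit. Per the submitters' processing notes and the study's methods, reads were trimmed with cutadapt 1.14, aligned to hg38 with Bowtie2 2.3.2 and counted on mature miRNAs with featureCounts 1.5.3. The authors deposited normalized signal values, CPM divided by TMM factors (edgeR 3.18.1). The handling of strand and of reads aligning to several places was not given in the sources used here. Whole reads were recovered from the steps of the values, and 100% of values came out whole (tolerance 0.001).

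limma 3.58.1 (R 4.3.3) was run on log2(normalized CPM + 1), which understates the change of miRNAs with few reads, with 1 term per line, a variance trend, all 8 libraries, 4 residual degrees of freedom and Benjamini-Hochberg adjustment over 528 miRNAs that passed edgeR's filterByExpr. Calls required an adjusted p below 0.01. Arm and neighbor ratios were fitted likewise over 139 hairpins and 71 hairpin pairs, with an exact permutation test of the F ratio, which has no direction, beside them, whose smallest possible p is 0.00952. The study describes the 2 libraries of each line as biological replicates, and p values measure only the spread between these libraries. Alternatives were edgeR 4.0.16 and DESeq2 1.42.0 on recovered reads, other scalings, filters and pseudocounts, a replicate block and leaving out each library. Further ones were a threshold of 0.05, entries of a name not summed, and fits of only the lines compared.

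All members were named. Likewise named were the 5 miRNAs with the highest Pearson r to each member, and the 3 most abundant of the list of KIT or CDKN1B regulators and the list of chromosome X miRNAs. Single miRNAs outside these rules were chosen after their values were seen. The members and lists were chosen with earlier results of these data known. Hairpin positions came from GENCODE for GRCh38 and mature sequences from RefSeq.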

Additional observations from a re-analysis of the deposited data

How the results depend on the processing

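Of 456 alternative fold changes of the members, 420 kept their direction and their side of the threshold, 30 lost the call, 6 gained one and 0 reversed. Among the alternatives was the main fit at an adjusted p below 0.05, which cannot reverse or lose a call. All 114 of hsa-miR-222-3p were kept, whereas 3 of hsa-miR-221-3p, 13 of hsa-miR-221-5p and 14 of hsa-miR-222-5p lost the call. Scaling by library size only left 1 member called in MV-3 against ES-2 in place of 3. Under that scaling the fold changes of all miRNAs shifted, in their log2 median, by 0.74 in Huh-7 against ES-2, 0.36 in MV-3 against ES-2, -0.28 in A-549 against ES-2, 0.41 in Huh-7 against MV-3, -0.61 in A-549 against MV-3 and -1.28 in A-549 against Huh-7. Leaving out single libraries gave 1 to 3 members in MV-3 against ES-2 and 2 to 3 in A-549 against MV-3; with fewer residual degrees of freedom the lone library of a line was assumed to vary like the others. hsa-miR-221-5p lost its call in MV-3 against ES-2 without any single ES-2, MV-3 or Huh-7 library (limma adjusted p up to 0.0411).

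The ratio differences that reversed were all uncalled, and the cause was not tested. The miR-222 arm ratio in Huh-7 against MV-3 became 0.20 with a pseudocount of 0.1 and 0.18 with 0.5 added to recovered reads. Without single libraries, that difference ranged from -0.86 to 0.50, and in Huh-7 against ES-2 from -0.56 to 0.81. The miR-221 arm ratio ranged from -0.25 to 0.040 in Huh-7 against ES-2 and from -0.35 to 0.21 in A-549 against MV-3. The ratio of hsa-miR-221-3p to hsa-miR-222-3p ranged from -0.27 to 0.018 in Huh-7 against MV-3 and from -0.22 to 0.073 in MV-3 against ES-2. A replicate block ended 1 call, hsa-miR-222-5p in A-549 against MV-3 (log2 fold change -2.04, limma adjusted p = 0.0143). Libraries with the same number had correlations of -0.05 to 0.23 in their deviations from the line means. These values do not show whether such libraries were prepared together. Depth limits hsa-miR-222-5p, with 6 to 23 reads in Huh-7 and A-549.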

Other observations

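Chromosome X miRNAs were listed from names with a single entry, so X-linked miRNAs with several entries were left out. The order ES-2, MV-3, A-549, Huh-7 without overlap of libraries was found for 0 of the 43 listed and tested, the members set aside. It was found for 3.41% of all miRNAs, so its absence does not set the listed X-linked miRNAs apart. In Huh-7 against ES-2, where the median log2 fold change of the members was -4.86, that of the X-linked miRNAs was 0.67 and that of all miRNAs 0.34, with 17 X-linked miRNAs higher and 10 lower by limma (27.7% and 21.6% of all miRNAs). MV-3 against ES-2 had 2 higher and 10 lower (11.6% and 14.2% of all), A-549 against ES-2 9 and 5 (23.7% and 17.6%), Huh-7 against MV-3 17 and 6 (26.9% and 20.1%), A-549 against MV-3 13 and 3 (24.1% and 15.5%), and A-549 against Huh-7 12 and 11 (28.6% and 23.7%). The hairpin nearest to MIR221 among those tested, MIR532, lies 4.257 Mb away on the plus strand.

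The most abundant of these, miR-224-5p, was at 9967 ± 656 normalized CPM in A-549 (SD, n = 2), 1258 ± 126 in ES-2, 1129 ± 47.6 in Huh-7 and 4.50 ± 2.17 in MV-3, where the members were high. miR-98-5p, of the let-7 family, was at 2063 ± 208 in A-549, 1730 ± 10.2 in ES-2, 834 ± 23.2 in MV-3 and 15.0 ± 6.25 in Huh-7. For miR-424-3p the level was 1407 ± 80.9 in ES-2, 1069 ± 21.1 in A-549, 347 ± 29.7 in MV-3 and 301 ± 4.72 in Huh-7. Like the members, miR-98-5p and miR-424-3p had their lowest mean in Huh-7. For miR-424-3p, however, Huh-7 against MV-3 was not called (log2 fold change -0.20, limma adjusted p = 0.0937).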
